A study of Mus musculus with 4 samples.

Results

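The genes described here run the polyamine pathway in the lung of the mouse embryo. They were chosen by name, as 9 genes of polyamine synthesis, control and breakdown (Odc1, Srm, Sms, Amd1, Oaz1, Oaz2, Azin1, Sat1 and Smox), and are read by every probe set whose annotation holds exactly 1 of these symbols. By that rule 7 of the 9 genes were measured, with 11 probe sets, out of 12393 genes measured on the arrays. No probe set was annotated to Amd1, and Sms was named only together with its pseudogene. The other 7 genes all passed the filter on dim genes, so each of them was tested.

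RNA of whole lung was measured on 4 Affymetrix arrays, 2 from Sftpc-Nmyc embryos and 2 from wild-type embryos, all titled embryonic day 18. Sftpc-Nmyc embryos carry mouse Nmyc1 (now Mycn, a growth-promoting transcription factor of the MYC family) fused to the green fluorescent protein EGFP, driven by a human SFTPC promoter of 3.7 kb that directs expression to distal lung epithelium. They came from pronuclear injection into F2 eggs of C57BL/6J and DBA/2J and were taken at day 18.5, per the design text. The strain and the exact hour of the wild-type embryos, the number of transgene copies and which of the injected embryos were arrayed are unknown here. The arrays are biological replicates per the same text, and their number limits the precision of every value.

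Polyamines are small positively charged molecules that bind RNA and DNA and are needed for growth and translation. Odc1, ornithine decarboxylase, makes putrescine. Srm adds an aminopropyl group to give spermidine, and Sms adds another to give spermine, with the donor supplied by Amd1. Antizymes (Oaz1, Oaz2) bind the Odc1 protein and send it to the proteasome, and the antizyme inhibitor Azin1 releases it. Sat1 acetylates spermidine and spermine for export or breakdown, and Smox oxidises spermine back to spermidine. Odc1 is a textbook target gene of MYC.

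In Sftpc-Nmyc lungs both measured synthesis enzymes were higher and both breakdown enzymes were lower. Odc1 was 3.48-fold and Srm 3.79-fold higher, while Sat1 was 1.89-fold and Smox 1.85-fold lower (n = 2 arrays per group). Among the genes that control the Odc1 protein, Oaz2 was 1.34-fold lower, and Oaz1 and Azin1 did not pass. In limma's linear model over 8675 genes, 5 of the 7 genes passed at an adjusted p under 0.05, against 30.4% of all genes tested. Of the 7 genes 2 passed as higher, against 14.7% of all genes, and 3 as lower, against 15.7%. Over all genes that balance depends on scaling: with a common median per array, 1548 genes passed as higher and 1158 as lower, against 1276 and 1360 here, and Oaz2 no longer passed. The groups did not overlap in 5 of the 7 genes, against 68.1% of all genes tested. Without wild-type replicate 2 the count of 5 that passed became 3, since Oaz2 and Smox no longer passed. All fold changes are on the scale of log2(signal + 5) after quantile normalization, which understates changes of dim genes.

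**Figure D1:**
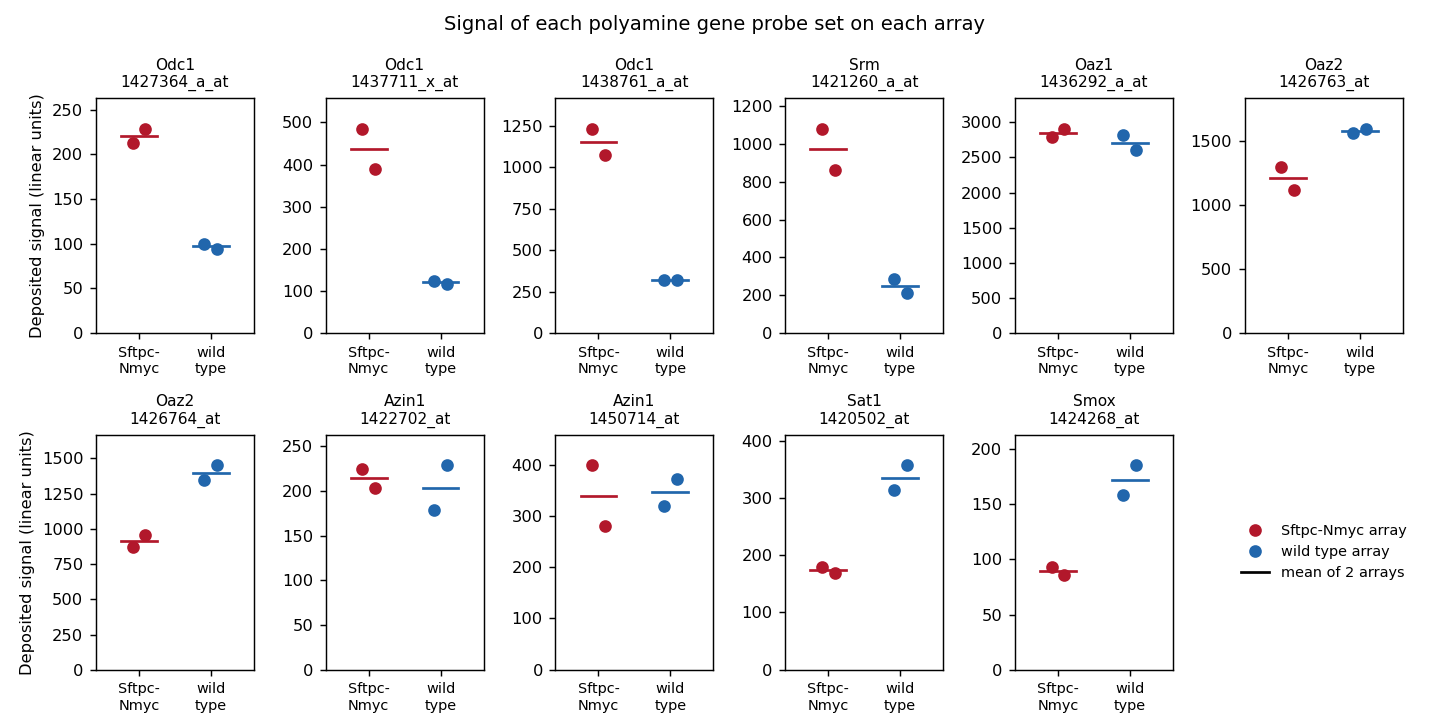
Deposited signal (linear units, vertical axes from 0) of the 11 probe sets of the 7 measured polyamine genes, with 1 point per array and a line at the mean of 2 arrays, Sftpc-Nmyc left and wild type right. The Odc1 and Srm points of the groups are far apart, with Odc1 probe set 1438761_a_at at 1073.9 and 1234.8 in Sftpc-Nmyc and 321.3 and 321.7 in wild type, whereas the Oaz1 and Azin1 points overlap.

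Odc1 lies on chromosome 12 and was read by 3 probe sets. The brightest, 1438761_a_at, had signals of 1234.8 and 1073.9 in Sftpc-Nmyc lungs, against 321.3 and 321.7 in wild-type lungs. Both transgenic arrays were more than 3 times as bright as either wild-type array. The log2 fold change was 1.80 ± 0.13 (SE; limma adjusted p = 0.000245), and 99.2% of all genes tested had a lower value. Probe set 1437711_x_at had signals of 485.5 and 389.9 in Sftpc-Nmyc lungs and 124.1 and 117 in wild-type lungs. Probe set 1427364_a_at had 212.9 and 228.8 in Sftpc-Nmyc lungs and 99.8 and 94.4 in wild-type lungs. In the fit over 14266 probe sets, in which 26.4% passed, these 2 rose by 1.81 ± 0.17 and 1.16 ± 0.16 (SE; limma adjusted p = 0.00068 and 0.0028). So 3 probe sets of the gene passed in the same direction, with 1427364_a_at at the smallest change and the other 2 close to each other.

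Srm, spermidine synthase, lies on chromosome 4 and was read by probe set 1421260_a_at. Its signals were 1082 and 861.5 in Sftpc-Nmyc lungs, against 286.4 and 211.8 in wild-type lungs. The groups did not overlap, and replicates within a group differed more than for Odc1. The log2 fold change was 1.92 ± 0.18 (SE; limma adjusted p = 0.00054), with 99.4% of all genes tested lower. Odc1 and Srm ranked 71 and 51 among the 8675 genes by size of rise. Both passed under all 13 alternative settings, which included leaving out each array in turn.

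Markers of dividing cells moved in the same direction as Odc1 and Srm. All 7 tested S phase markers were higher, against 14.7% of all genes tested. Their summed signal was 4808.8 to 5087.3 in Sftpc-Nmyc lungs, against 1324.8 to 1877.7 in wild-type lungs. The part of dividing cells in the rise of Odc1 and Srm was not tested. Mycn itself was read by 3 probe sets, not all of them bright. As a rough guide to background, the highest signal of 27 Bacillus control probe sets on any array was 73.4. Probe set 1425922_a_at had signals of 455.2 and 356 in Sftpc-Nmyc lungs and 34.7 and 32.1 in wild-type lungs, so only its transgenic readings lay above that guide. It passed as higher in the fit over probe sets (3.46 ± 0.19, log2, SE; limma adjusted p = 0.00012). Probe set 1417155_at ran the other way, with 25.1 and 27.2 in Sftpc-Nmyc lungs and 78.7 and 63.5 in wild-type lungs, of which 1 reading lay above the guide. It passed as lower in the same fit (-1.20 ± 0.27, log2, SE; limma adjusted p = 0.015). Probe set 1425923_at lay below it on every array, with 61.8 and 43.8 in Sftpc-Nmyc lungs and 57.3 and 18.8 in wild-type lungs, and did not pass (limma adjusted p = 0.33).

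Of the 3 genes that control the Odc1 protein, Oaz2 passed as lower, and Oaz1 and Azin1 did not pass. Oaz1, the main antizyme, lies on chromosome 10 and had signals of 2788.7 and 2909.7 in Sftpc-Nmyc lungs and 2815 and 2599.5 in wild-type lungs on probe set 1436292_a_at. The groups overlapped, and the log2 fold change was 0.00 ± 0.10 (SE), with a 95% interval of -0.23 to 0.24 (limma adjusted p = 0.98). A change of either sign smaller than that interval cannot be told from none with these arrays. A further probe set, 1428868_a_at, is assigned to both Oaz1 and its pseudogene and could not be ascribed to either. It gave 2244.6 and 2485.7 in Sftpc-Nmyc lungs and 2089.5 and 2055.9 in wild-type lungs, a log2 difference of 0.14 ± 0.10 that did not pass in a fit with such probe sets included (SE; limma adjusted p = 0.37).

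Oaz2, another antizyme, lies on chromosome 9 and was read by 2 probe sets. Probe set 1426763_at had signals of 1302.5 and 1117.9 in Sftpc-Nmyc lungs, against 1569.7 and 1600.6 in wild-type lungs, and fell by 0.42 ± 0.12 (log2, SE; limma adjusted p = 0.030). Both transgenic arrays were below both wild-type arrays, and the adjusted p lay close to the threshold. In the fit over genes the Oaz2 call was lost under 7 of 13 alternatives (adjusted p = 0.0091 to 0.13, the lowest with the mean of both probe sets). In the fit over probe sets 1426763_at lost its call under 8 of 13 (adjusted p = 0.032 to 0.15). Probe set 1426764_at had 869.2 and 959.4 in Sftpc-Nmyc lungs and 1348.6 and 1450.9 in wild-type lungs. It fell by 0.65 ± 0.12 (log2, SE; limma adjusted p = 0.0076 over all probe sets), and kept its call under 12 of 13 alternatives, the exception being without wild-type replicate 2 (-0.61, adjusted p = 0.055; range over alternatives 0.0069 to 0.055).

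Azin1, the antizyme inhibitor, lies on chromosome 15 and was read by 2 probe sets, neither of which passed. Probe set 1450714_at had 398.6 and 279.6 in Sftpc-Nmyc lungs and 320.1 and 371.8 in wild-type lungs. Here the wild-type arrays lay between the transgenic arrays. The log2 fold change was -0.05 ± 0.19 (SE), with a 95% interval of -0.49 to 0.40 (limma adjusted p = 0.88). Probe set 1422702_at had 225.2 and 203.9 in Sftpc-Nmyc lungs and 178.9 and 228.8 in wild-type lungs, at 0.09 ± 0.18 (log2, SE; limma adjusted p = 0.76 over all probe sets). The intervals are wider than for Oaz1, so a modest change of Azin1 in either direction was not detectable.

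**Figure D2:**
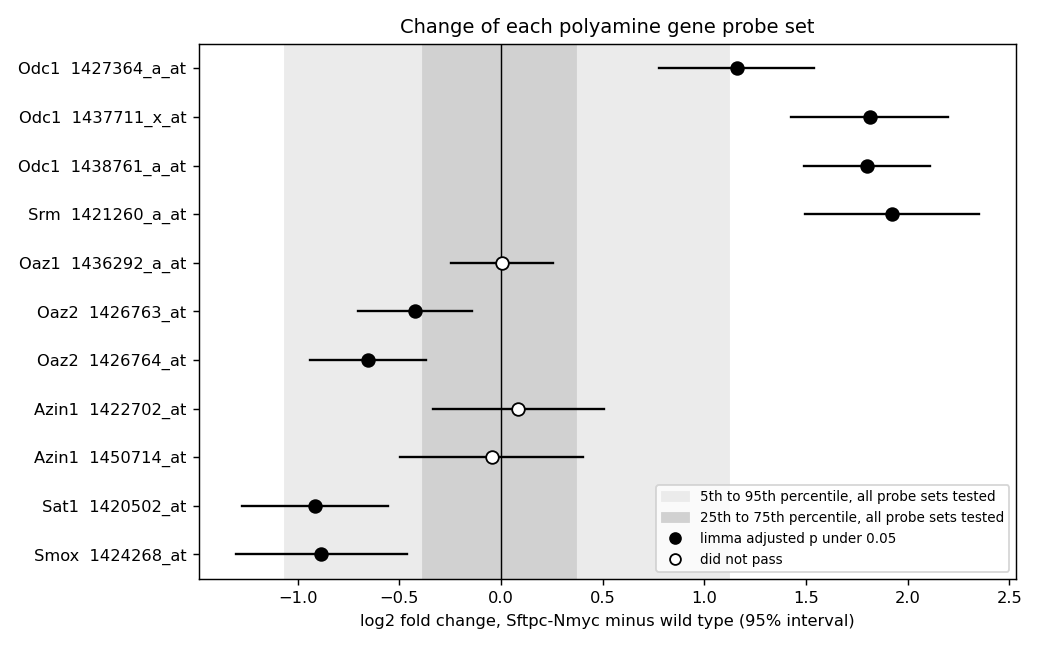
Log2 fold change, Sftpc-Nmyc minus wild type (horizontal axis), of each of the 11 probe sets with its 95% limma interval, filled where the adjusted p over all probe sets was under 0.05 and open where it was not, over bands that hold the 5th to 95th and 25th to 75th percentiles of all 14266 probe sets tested. The 3 Odc1 probe sets and Srm lie above the 95th percentile (1.12), and Sat1 and Smox lie between the 5th (-1.06) and the 25th (-0.38).

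Both breakdown enzymes were lower. Sat1, spermidine/spermine acetyltransferase, lies on chromosome X and had signals of 180 and 168.4 in Sftpc-Nmyc lungs, against 313.6 and 356.9 in wild-type lungs, on probe set 1420502_at. The groups were well apart, and replicates differed little. Sat1 fell by 0.92 ± 0.15 (log2, SE; limma adjusted p = 0.0040), and 7.52% of all genes tested had a lower value. The call held under all 13 alternative settings, with log2 fold changes from -1.003 to -0.774.

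Smox, spermine oxidase, lies on chromosome 2 and had signals of 93.2 and 85.8 in Sftpc-Nmyc lungs, against 158.7 and 185.2 in wild-type lungs, on probe set 1424268_at. Both transgenic values were below both wild-type values and only a little above 73.4, the highest Bacillus control signal. Smox fell by 0.88 ± 0.18 (log2, SE; limma adjusted p = 0.0085). Without wild-type replicate 2 it did not pass (-0.76, limma adjusted p = 0.060), and over all 13 alternatives the adjusted p ran from 0.0068 to 0.060.

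Markers of several cell types fell alongside Sat1 and Smox, and in whole lung fewer cells of a type and less RNA per cell cannot be told apart. All 7 endothelial markers were lower, with a summed signal of 1996.2 to 2092.2 in Sftpc-Nmyc lungs, against 5524.8 to 6425 in wild-type lungs. Of 7 macrophage markers 3 were lower and none higher, with sums of 1210.9 to 1214.2 in Sftpc-Nmyc lungs and 4359.3 to 5732.1 in wild-type lungs. Most of the wild-type sums was Lyz2, which mouse alveolar type II cells also express, and without it the sums were 680.2 to 685.9 in Sftpc-Nmyc lungs and 1311.9 to 1372.5 in wild-type lungs. Of 7 fibroblast markers 5 were lower and none higher, with sums of 6718 to 7763.5 in Sftpc-Nmyc lungs and 12375.3 to 12750.6 in wild-type lungs. All 6 tested alveolar type II markers were lower (6505.2 to 8730.1 in Sftpc-Nmyc lungs, 24217.8 to 27913.7 in wild-type lungs), as were both tested erythroid markers (422 to 428 in Sftpc-Nmyc lungs, 2153.8 to 2321.1 in wild-type lungs) and all 5 tested cardiac markers (292.7 to 548.7 in Sftpc-Nmyc lungs, 1696.8 to 2725.7 in wild-type lungs). Over all genes tested 14.7% passed as higher and 15.7% as lower. Sums are over all measured markers of a list, and none of these markers was listed at 0 on any array. The part of these cell types in the lower Sat1 and Smox signals was not tested. General lung epithelial markers were present in both groups. Of 7 tested 2 were higher, Epcam (2.79-fold) and Cdh1 (1.98-fold), and 1, Sftpa1, was lower. Their sums were 6684.6 to 7197.3 in Sftpc-Nmyc lungs and 7407 to 9274.2 in wild-type lungs. Sftpa1 is also on the alveolar type II list, and without it the order of the sums turned, to 6337.2 to 6569 in Sftpc-Nmyc lungs and 4184.1 to 4659.5 in wild-type lungs. The part of cell type shares in the higher Odc1 and Srm signals was not tested either.

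Sat1 and Sms are X-linked, and the groups differed in sex-linked signals. Xist, the RNA of the inactive X chromosome, had signals of 59.3 and 63.9 in Sftpc-Nmyc lungs, against 1707.8 and 1506.1 in wild-type lungs. The Y-linked gene Eif2s3y had 58 and 61.7 in Sftpc-Nmyc lungs and 3.1 and 0.8 in wild-type lungs. Y-linked Kdm5d had 55.1 and 44 in Sftpc-Nmyc lungs and 23.3 and 25.6 in wild-type lungs. Y-linked Uty had 57 and 41.4 in Sftpc-Nmyc lungs and 29.8 and 1.1 in wild-type lungs. All these Y-linked readings lay under 73.4, the highest Bacillus control signal, and the genes were too dim to be tested. These signals split the groups as male (Sftpc-Nmyc) and female (wild-type) embryos would. Embryo sex and genotype therefore cannot be told apart in any comparison here, of X-linked or of autosomal genes. Of 256 X-linked genes tested, 13.3% passed as lower, against 15.8% of 8405 autosomal genes, and the median log2 fold change was -0.03 on the X and -0.02 on the autosomes. These values describe X-linked genes as a set, and the part of sex in the Sat1 and Sms signals was not tested.

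Sms, spermine synthase, could not be read on its own, because its 3 probe sets are also assigned to the pseudogene Sms-ps. The values below therefore belong to the probe sets and not to Sms alone. Probe set 1421052_a_at had 350 and 351.1 in Sftpc-Nmyc lungs and 212.2 and 221.6 in wild-type lungs. It passed in a fit over 15838 probe sets that included those with several symbols or none (0.68 ± 0.14, SE; limma adjusted p = 0.013), but not without any 1 of the 4 arrays (limma adjusted p = 0.052 to 0.066), although the log2 difference stayed between 0.65 and 0.72. Probe set 1434190_at had 246.2 and 239.3 in Sftpc-Nmyc lungs and 196.7 and 170.2 in wild-type lungs and did not pass (0.40 ± 0.16, SE; limma adjusted p = 0.11). Probe set 1428699_at was dim in all samples, at 42.5 and 49.7 in Sftpc-Nmyc lungs and 49 and 43 in wild-type lungs. The higher reading thus rests on 1 of 3 probe sets.

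**Figure D3:**
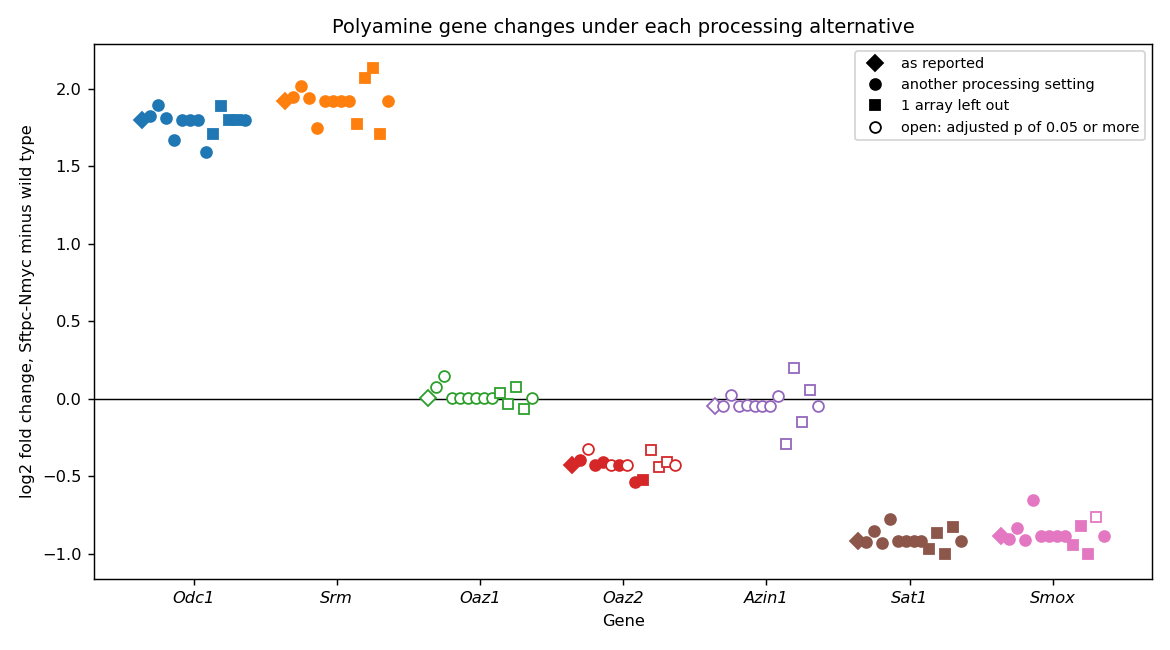
Log2 fold change of each of the 7 genes (vertical axis) as reported (diamonds), under other processing settings (circles) and with 1 array left out (squares), filled where the limma adjusted p was under 0.05. Odc1 (1.59 to 1.90), Srm (1.71 to 2.13) and Sat1 (-1.003 to -0.774) are filled throughout, whereas Oaz2 is open under 7 of 13 alternatives.

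Promoter windows are printed to show the sequence upstream of genes that moved in opposite directions and of Oaz1, which did not pass. They are RefSeq windows of build GRCm38.p6, from 250 bases before to 50 bases after an annotated start, written 5′ to 3′ on the gene's strand. Of the 9 genes 7 had a window, and those of Srm and Azin1 were not in the table used. Capitals mark matches to CACGCG or its reverse complement CGCGTG, a variant of the E-box CACGTG that MYC and MAX proteins bind. CACGTG itself was also searched and is its own reverse complement. The windows are chr12:17544623-17544922 on the plus strand for Odc1, chr10:80826406-80826705 on the plus strand for Oaz1, chrX:155216400-155216699 on the minus strand for Sat1 and chr2:131491612-131491911 on the plus strand for Smox.
Odc1: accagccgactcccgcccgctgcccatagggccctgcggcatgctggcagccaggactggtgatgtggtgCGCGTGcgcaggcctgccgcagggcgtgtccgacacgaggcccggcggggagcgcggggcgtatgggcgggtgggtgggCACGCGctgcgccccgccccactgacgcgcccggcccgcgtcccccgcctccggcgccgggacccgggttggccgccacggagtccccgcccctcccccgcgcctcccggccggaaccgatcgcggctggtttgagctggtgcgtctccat
Oaz1: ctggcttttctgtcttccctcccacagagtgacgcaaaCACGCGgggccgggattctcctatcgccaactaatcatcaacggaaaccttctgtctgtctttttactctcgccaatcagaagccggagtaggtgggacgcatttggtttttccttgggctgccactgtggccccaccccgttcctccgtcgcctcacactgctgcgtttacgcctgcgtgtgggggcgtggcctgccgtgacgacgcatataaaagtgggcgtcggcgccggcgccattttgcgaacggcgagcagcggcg
Sat1: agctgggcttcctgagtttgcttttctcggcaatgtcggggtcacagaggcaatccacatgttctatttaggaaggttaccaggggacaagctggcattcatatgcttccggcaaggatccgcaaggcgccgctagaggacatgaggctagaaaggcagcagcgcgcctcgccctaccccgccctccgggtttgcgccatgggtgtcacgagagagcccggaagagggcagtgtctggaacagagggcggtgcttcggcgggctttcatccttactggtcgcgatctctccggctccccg
Smox: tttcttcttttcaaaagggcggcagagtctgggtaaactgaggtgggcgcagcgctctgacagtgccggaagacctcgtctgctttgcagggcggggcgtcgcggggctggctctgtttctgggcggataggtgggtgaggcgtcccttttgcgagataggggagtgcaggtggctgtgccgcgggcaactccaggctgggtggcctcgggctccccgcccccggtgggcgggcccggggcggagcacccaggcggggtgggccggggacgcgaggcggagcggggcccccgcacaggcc
The Odc1 window held 2 separate matches to CACGCG on either strand, beginning 180 and 101 bases before the start, and the Oaz1 window held 1, beginning 212 bases before the start. The Sat1, Smox, Oaz2 and Amd1 windows held neither motif. Of the 2 Sms windows, 1 held a CACGTG beginning 196 bases before its start and the other a CACGCG beginning 140 bases before its start. Over all 32851 windows of the same length, 9.27% held CACGCG and 7.15% held CACGTG, and none of the 4 printed windows held CACGTG. The best known E-boxes of Odc1 lie in its first intron, outside this window. The share of G and C was 78% in the Odc1 window, 60% in Oaz1, 60.3% in Sat1 and 71% in Smox. Of all windows, 98.1% had a lower share than Odc1, 70.5% than Oaz1, 71.4% than Sat1 and 91.8% than Smox. The 9.27% for CACGCG is over all windows and not over windows with a like share of G and C. A match is a description of letters, and Oaz1, with 1 match, did not pass.

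Genes around the pathway were read from 5 lists with 37 genes, of which 24 were measured and 19 tested. Of these, 6 were higher and 1 was lower, and their median log2 fold change was 0.26, against -0.02 over all genes tested. Over all genes 14.7% passed as higher and 15.7% as lower, and counts in lists of 1 to 7 tested genes are too small to be set apart from those shares. Of 6 further polyamine genes only 1 was measured, Agmat, named after its value was seen, and it did not pass (-0.04 ± 0.26, SE; limma adjusted p = 0.93). Paox, Sat2, Azin2, Oaz3 and Amd2 were not measured. Among ornithine and arginine supply genes 1 of 4 was higher and none lower, namely Aldh18a1, which makes the precursor of proline and ornithine. It rose by 1.22 ± 0.16 (log2, SE; limma adjusted p = 0.0017), with signals of 200.5 and 206.8 in Sftpc-Nmyc lungs and 86.7 and 85 in wild-type lungs.

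Genes of S-adenosylmethionine turnover and methylthioadenosine salvage supply the aminopropyl donor and recycle its by-product. Of 7 tested 2 were higher, against 14.7% of all genes, and 1 was lower, against 15.7%. Ahcy, which clears S-adenosylhomocysteine, had signals of 689.5 and 787 in Sftpc-Nmyc lungs and 352.4 and 292.9 in wild-type lungs, and rose by 1.16 ± 0.16 (log2, SE; limma adjusted p = 0.0017). Mri1, an isomerase of methylthioadenosine salvage, rose by 1.04 ± 0.18, but not with the mean of its probe sets in place of the brightest (0.66, limma adjusted p = 0.097; range over alternatives 0.0038 to 0.097). Apip, the dehydratase of the following step, fell by 0.52 ± 0.15 (limma adjusted p = 0.032), with signals of 186.4 and 192.5 in Sftpc-Nmyc lungs and 286.3 and 262.8 in wild-type lungs. The Apip call was lost under 7 of 13 alternatives, including without any 1 of the 4 arrays (-0.59 to -0.46). 

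Spermidine is used to make hypusine, a modified lysine of the translation factor Eif5a. Of 3 tested genes of this step 2 were higher, against 14.7% of all genes, and none lower. Eif5a had signals of 4135.2 and 4305.2 in Sftpc-Nmyc lungs, against 2268.5 and 2480.5 in wild-type lungs, and rose by 0.66 ± 0.10 (log2, SE; limma adjusted p = 0.0024). Dohh, the hydroxylase that completes hypusine, rose by 0.50 ± 0.16 (limma adjusted p = 0.046), a call lost under 8 of 13 alternatives, including without any 1 of the 4 arrays (0.43 to 0.57). Dhps, which starts the modification and is named after its value was seen, did not pass (0.22 ± 0.20, SE; limma adjusted p = 0.45). Among 4 tested transporters Slc7a5, a carrier of large neutral amino acids, was higher by 1.08 ± 0.17 (log2, SE; limma adjusted p = 0.0028) and none was lower.

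**Figure D4:**
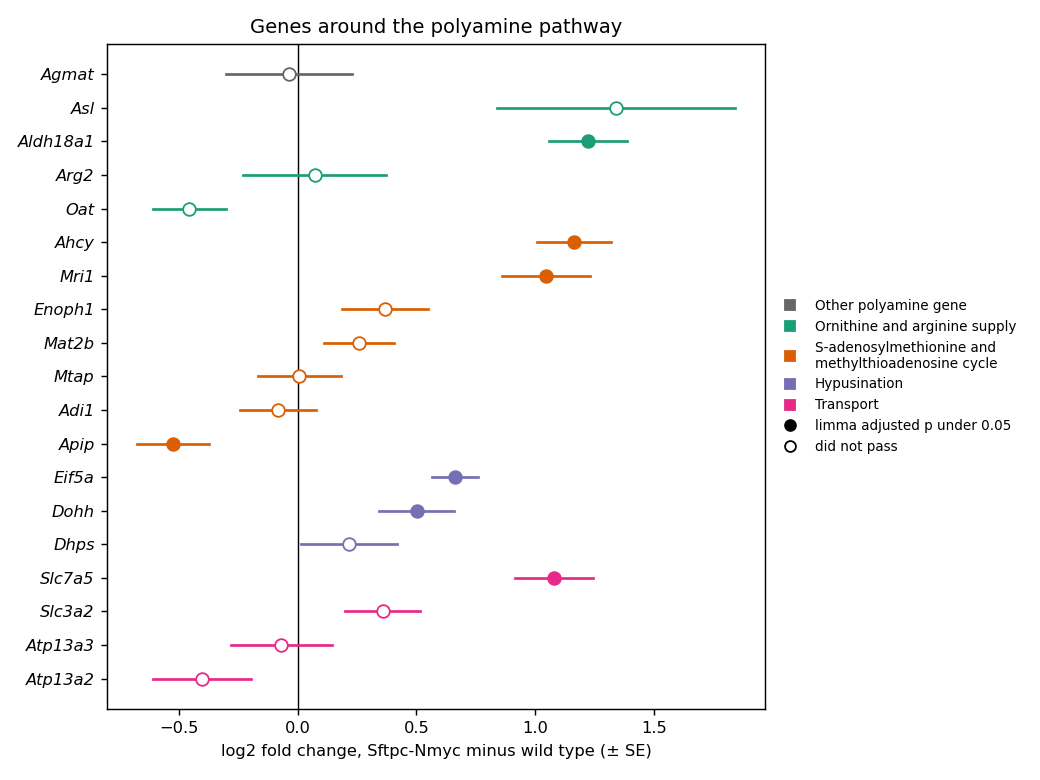
Log2 fold change, Sftpc-Nmyc minus wild type (horizontal axis, with bars of 1 SE), of the 19 tested genes around the polyamine pathway, coloured by list and filled where the limma adjusted p was under 0.05. The 6 filled points right of 0 are Aldh18a1, Ahcy, Mri1, Eif5a, Dohh and Slc7a5, and the 1 filled point left of 0 is Apip.

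The 5 genes whose centred log2 profile over the 4 arrays lay closest to that of Odc1 were Ccnf, Fam136a, Rpl14, Gnl3 and Mif, at Euclidean distances of 0.097 to 0.17. Ccnf, cyclin F, was the nearest, with signals of 113.1 and 104.2 in Sftpc-Nmyc lungs and 32.4 and 27.7 in wild-type lungs. Its wild-type readings lay below 73.4, the highest Bacillus control signal, as did those of Rpl14 (44.1 and 43.1). With an offset of 50 the log2 rise was 1.02 for Ccnf and 1.12 for Rpl14, against 1.67 for Odc1. Mif, a cytokine, was the brightest reading, with 4289.4 and 3942.7 in Sftpc-Nmyc lungs and 917.7 and 1007.9 in wild-type lungs. All 5 rose by between 1.72 and 1.93 on the log2 scale. Rises near that of Odc1 (1.80) follow from the way these genes were chosen and are not a separate result.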

How the data were processed

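Signals of 22690 probe sets on 4 arrays were used as deposited, as intensities on a linear scale. RNA was total RNA of whole lung, purified by RNeasy and labelled with biotin by an Affymetrix kit, per the labels. The software behind the signals is not stated there. The arrays share a trimmed mean of 150.05 (2% removed at each end). No detection calls were used. The members and lists were chosen with earlier results of these data known.

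Probe sets with exactly 1 symbol in the platform annotation (20380) were kept. Values under 1 were set to 1, 5 was added, log2 was taken and arrays were quantile normalized without the 64 controls. A gene was read from its brightest probe set over all arrays, and genes below the 30th percentile of the mean were left out, as were probe sets in the fit over probe sets. limma 3.58.1 in R 4.3.3 fitted group alone (eBayes with trend, two-sided), with Benjamini-Hochberg adjustment over all features tested at 0.05. Alternatives changed the normalization, the offset (1 or 50), the filter, the variance trend, the probe set that stands for a gene and the replicate block, or left out each array in turn. The code was tested on simulated data. All members were named, with list genes that passed (up to 5 a list by size of change) and the 5 genes nearest to Odc1. Arrays were not treated as paired by replicate number. Deviations of same-numbered arrays from their group means correlated at r = -0.02 over 22626 probe sets. With 2 arrays per group this is a single comparison, so it cannot exclude a pairing.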

Additional observations from a re-analysis of the deposited data

How the results depend on the processing

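Odc1, Srm and Sat1 kept direction and call under all 13 alternatives, Smox under 12 and Oaz2 under 6. Leaving out 1 array gave 1396 to 1917 changed genes against 2636 with all arrays, 2090 to 2801 changed probe sets against 3768, and 3 to 5 polyamine genes against 5. The uncalled values near 0 changed sign. Azin1 was 0.025 with a common median per array (also its probe set 1450714_at) and 0.020 with the mean of its probe sets. With 1 array left out, Azin1 and probe set 1450714_at ran from -0.29 to 0.20, Azin1 probe set 1422702_at from -0.10 to 0.27, and Oaz1 and probe set 1436292_a_at from -0.065 to 0.074. Where 1 array was left alone in its group, it was assumed to vary like the others. The cause of these shifts was not tested. With the replicate number as a block, 2218 genes, 3179 probe sets, 4 polyamine genes and 6 wider pathway genes changed. Oaz2 no longer passed under the block (-0.42, limma adjusted p = 0.056), nor did Apip (-0.52, 0.059) or Dohh (0.50, 0.074), and the block changed no other call among the genes named from the pathway. The fit that included probe sets with several symbols or none, chosen after seeing the data, called 4056 probe sets of 15838. With 2 arrays per group and no detection calls, readings of dim genes such as Smox are uncertain. Of the 5 polyamine genes that passed, Oaz2, which was bright, kept its call under the fewest alternatives.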

Other observations

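Arg1, the arginase that makes ornithine from arginine, was measured but too dim to be tested, with signals of 3 and 4 in Sftpc-Nmyc lungs and 40.1 and 53.2 in wild-type lungs, all under 73.4, the highest Bacillus control signal. Arg2, the other arginase, had 47 and 34.2 in Sftpc-Nmyc lungs and 40.5 and 41 in wild-type lungs, also all under 73.4, and did not pass (limma adjusted p = 0.88). Both were named after their values were seen.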
